A study of Homo sapiens with 6 samples.

Results

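Metallothioneins and the genes around them that sense and move zinc were measured by RNA-seq in Huh7 cells, an established human hepatocellular carcinoma line. The 9 genes were taken from the 79172 gene names of the count table by symbol. They are the metallothionein genes MT1E, MT1F, MT1G, MT1M, MT1X and MT2A, the metal-sensing transcription factor gene MTF1, and the zinc transporter genes SLC30A1 and SLC39A14. All 9 passed the filter on low counts. The 2 groups were Huh7 cells labelled Control and Huh7 cells labelled as overexpressing HK1, the gene of hexokinase 1, with 3 libraries each. How HK1 was introduced, what the control cells received and whether replicates were separate cultures are not given in the sources used here, so p-values measure only the spread between these libraries, which may be technical.

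Metallothioneins are small cysteine-rich proteins that hold zinc, copper and cadmium in thiolate clusters, and liver is among the tissues where they are most strongly induced. MTF1 is a zinc finger protein that binds DNA when free zinc rises, at short sequences called metal response elements upstream of metallothionein genes and of SLC30A1. SLC30A1 exports zinc across the plasma membrane, and SLC39A14 brings zinc, iron and manganese into hepatocytes.

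HK1 matched its labels in every library, at 0.653 to 0.880 CPM in controls and 489.8 to 525.8 CPM in HK1-overexpressing cells. CPM is a gene's share of its library's counts times 1000000, with the library total scaled by its TMM factor. Library totals ran from 16771835 to 20823072 counts. All 8 hepatocyte markers listed were tested, and they summed to 12267 to 13236 CPM in controls and 9652 to 9967 CPM in HK1-overexpressing cells. Of these 8, 5 were lower at an adjusted p below 0.05 in edgeR, against 4.15% of all tested genes. Of the listed markers of other cells, CDH5 and KDR had no counts, 0 in each of the 6 libraries, and PTPRC, CD3E, CD68, VWF, DCN and THY1 had at most 8 counts in any. The 5 leukocyte markers summed to 64.3 to 74.3 CPM in controls and 46.7 to 51.3 CPM in HK1-overexpressing cells, nearly all of it LYZ. The 5 fibroblast markers, nearly all of it COL1A2, summed to 11.8 to 13.5 CPM in the first group and 17.2 to 19.8 CPM in the second. The 4 endothelial markers, nearly all of it PECAM1, summed to 4.02 to 6.25 and 4.53 to 5.40 CPM. Their part in the results below was not tested.

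The 6 metallothionein genes lie in 1 cluster on chromosome 16 (hg38), in the order MT2A, MT1E, MT1M, MT1F, MT1G and MT1X. MT2A spans 56608584 to 56609497, MT1E 56625475 to 56627112, MT1M 56632659 to 56633981, MT1F 56657731 to 56660698, MT1G 56666730 to 56668065 and MT1X 56682470 to 56684196, all counted over exons. MT1G is on the minus strand and the other 5 are on the plus strand. Their coding sequences are shown because the genes are close copies of each other, which bears on how fragments can be counted. They come from GENCODE release 29 transcripts (GRCh38), run 5′ to 3′ from the start to the stop codon across 3 exons, and have capitals at each base that differs from MT2A.
MT2A, chr16:56608656-56609354, plus strand: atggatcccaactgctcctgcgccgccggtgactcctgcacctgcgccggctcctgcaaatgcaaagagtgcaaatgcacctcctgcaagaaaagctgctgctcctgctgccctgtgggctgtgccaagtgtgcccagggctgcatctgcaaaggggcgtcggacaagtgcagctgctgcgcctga
MT1E, chr16:56625852-56626971, plus strand: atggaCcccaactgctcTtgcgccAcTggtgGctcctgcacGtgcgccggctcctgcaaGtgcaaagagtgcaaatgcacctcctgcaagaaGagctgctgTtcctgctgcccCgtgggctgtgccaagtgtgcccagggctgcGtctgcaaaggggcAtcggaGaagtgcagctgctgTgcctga
MT1M, chr16:56632732-56633842, plus strand: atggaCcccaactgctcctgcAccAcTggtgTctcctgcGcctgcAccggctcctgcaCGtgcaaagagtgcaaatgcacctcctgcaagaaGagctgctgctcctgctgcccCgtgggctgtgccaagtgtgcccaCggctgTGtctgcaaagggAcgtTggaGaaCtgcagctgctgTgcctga
MT1F, chr16:56658059-56659164, plus strand: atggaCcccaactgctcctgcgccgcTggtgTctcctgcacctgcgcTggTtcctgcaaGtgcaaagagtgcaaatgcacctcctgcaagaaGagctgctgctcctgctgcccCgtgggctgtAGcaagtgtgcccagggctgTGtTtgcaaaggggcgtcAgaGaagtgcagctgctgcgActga
MT1G, chr16:56666879-56667993, minus strand: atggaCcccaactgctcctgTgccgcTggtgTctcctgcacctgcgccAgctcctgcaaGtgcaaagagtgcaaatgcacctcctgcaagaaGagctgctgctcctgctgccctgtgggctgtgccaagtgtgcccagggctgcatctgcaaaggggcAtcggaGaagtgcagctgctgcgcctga
MT1X, chr16:56682541-56684049, plus strand: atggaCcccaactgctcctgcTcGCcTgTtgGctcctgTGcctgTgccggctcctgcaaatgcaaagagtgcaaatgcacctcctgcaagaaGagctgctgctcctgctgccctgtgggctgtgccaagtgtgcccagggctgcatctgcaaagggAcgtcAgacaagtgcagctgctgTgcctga
Each coding sequence is 186 bases long with 20 cysteine codons. MT1M differs from MT2A at 19 bases (89.8% identity), MT1F at 16, MT1E and MT1X at 14 each and MT1G at 9 (95.2% identity). Between any 2 of the 6, identity ran from 88.7% (MT1F and MT1X) to 95.2% (MT1G and MT2A).

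No 100-base window of the 6 whole mRNAs occurred exactly in another listed metallothionein gene or pseudogene. With up to 2 mismatches, 11.7% of the 100-base windows of MT1X did, 8.2% of MT2A, 6.2% of MT1G, 4.0% of MT1E and 0.0% of MT1F and MT1M. For 50-base windows the share with an exact copy elsewhere was 20.2% in MT1G, 16.0% in MT1X, 7.1% in MT1M, 5.3% in MT1E, 4.9% in MT2A and 3.6% in MT1F. The authors' counting set no option to keep fragments that map to several places, so such fragments may be missing, and counts of a single copy are uncertain to that extent. Exons of MT1X share 18.6% of their bases with another annotated gene on the same strand, those of MT1F 5.02% and those of SLC39A14 3.11% with a gene on the opposite strand, where fragments can also go uncounted. MT1E, MT1G, MT1M, MT2A, MTF1 and SLC30A1 share none.

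MT1M, MT1F and MT1E, which encode metallothionein 1 isoforms, were lower in HK1-overexpressing cells. Of the 9 genes, 3 fell and 0 rose at an adjusted p below 0.05 (quasi-likelihood test of edgeR, Benjamini-Hochberg over every tested gene), and DESeq2 and limma-voom also called these 3 and no other. Of all 16734 tested genes 8.02% were called, 4.15% lower and 3.87% higher. At an unadjusted p below 0.05, MT1X and MT1G were lower too and none of the 9 was higher, against 21.9% of all tested genes past that threshold in either direction and 11.2% lower. The median log2 fold change was -0.26 over the 9 genes and 0.0063 over all tested genes. In bulk samples such as these, fewer cells that express a gene and less of its RNA per cell cannot be told apart.

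MT1M stood at 15.3, 19.4 and 18.1 CPM in control replicates 1, 2 and 3 and at 11.03, 10.1 and 9.38 CPM in HK1-overexpressing replicates 1, 2 and 3, from 305, 331 and 299 counts against 219, 210 and 198. The groups did not overlap, and the mean went from 17.6 ± 2.09 to 10.2 ± 0.829 CPM (SD, n = 3 each). Its log2 fold change was -0.79 (standard error 0.103, edgeR adjusted p = 0.000259), the largest among the 9 genes. MT1F stood at 47.05, 57.8 and 53.5 CPM in controls and at 37.6, 35.3 and 36.7 CPM in HK1-overexpressing cells. It did not overlap between groups either, and its mean went from 52.8 ± 5.40 to 36.5 ± 1.17 CPM, a log2 fold change of -0.53 (standard error 0.0756, edgeR adjusted p = 0.000560). MT1E stood at 70.5, 87.3 and 81.1 CPM in controls and at 60.9, 58.6 and 55.8 CPM in HK1-overexpressing cells. Every HK1-overexpressing library was below every control, with means of 79.6 ± 8.49 and 58.4 ± 2.53 CPM and a log2 fold change of -0.45 (standard error 0.0744, edgeR adjusted p = 0.00193). These 3 calls held in each of the 16 alternative settings, with log2 fold changes of -0.88 to -0.71 for MT1M, -0.60 to -0.45 for MT1F and -0.52 to -0.37 for MT1E.

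**Figure D1:**
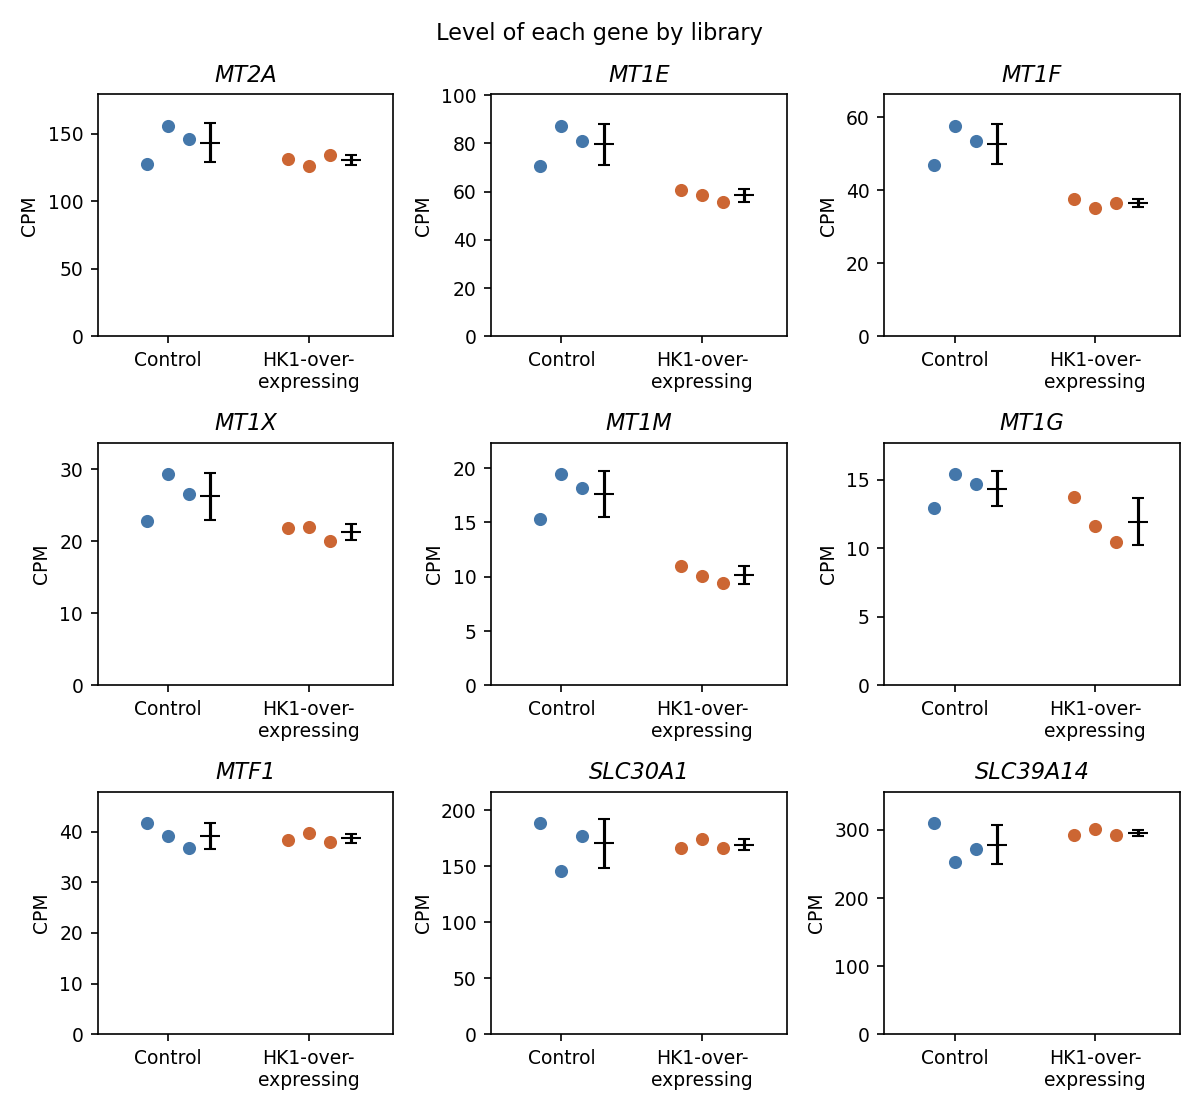
CPM of the 9 genes in each library, with control libraries in blue and HK1-overexpressing libraries in orange, replicates 1 to 3 from left to right; the black bar is the mean with its SD (n = 3), and each axis starts at 0. MT1E, MT1F, MT1M and MT1X have no overlap between groups, and in all 6 metallothionein panels control replicate 1 is the lowest control.

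MT1X, also a metallothionein 1 isoform, stood at 22.8, 29.3 and 26.6 CPM in controls and at 21.9, 21.9 and 19.99 CPM in HK1-overexpressing cells. Its groups did not overlap, but control replicate 1 was less than 1 CPM above the highest HK1-overexpressing library and the gene did not pass the test (log2 fold change -0.30, standard error 0.0905, edgeR adjusted p = 0.0574). It passed without control replicate 1 (adjusted p = 0.00334), without a filter (adjusted p = 0.0148) and with the gene length trend removed (adjusted p = 0.0327), and over all 16 alternatives its adjusted p ran from 0.00334 to 0.237. The side of the threshold on which MT1X fell thus changed with control replicate 1 and with the filter. In all, 4 of the 9 genes had no overlap between groups, all with HK1-overexpressing cells lower, against 27.8% of all tested genes in either direction and 13.9% in that direction.

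MT2A, the most abundant metallothionein here and the main form of many human tissues, stood at 127.7, 156.0 and 146.3 CPM in controls and at 131.6, 126.1 and 134.0 CPM in HK1-overexpressing cells. The groups overlapped, since control replicate 1 lay within the HK1-overexpressing range, and the gene did not pass (log2 fold change -0.13, standard error 0.0668, edgeR adjusted p = 0.265). Without control replicate 1 it was called lower (log2 fold change -0.21, adjusted p = 0.0123), and the adjusted p ran from 0.0123 to 0.572 over 16 alternatives. MT1G, which holds 4.43% of the metallothionein counts in HK1-overexpressing cells, stood at 12.9, 15.4 and 14.7 CPM in controls and at 13.7, 11.6 and 10.4 CPM in HK1-overexpressing cells. Its groups overlapped and it was not called in any of 16 settings (log2 fold change -0.26, edgeR adjusted p = 0.168, from 0.0511 to 0.496 over the alternatives). It had the widest spread among HK1-overexpressing libraries relative to its mean, 11.9 ± 1.69 CPM.

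**Figure D2:**
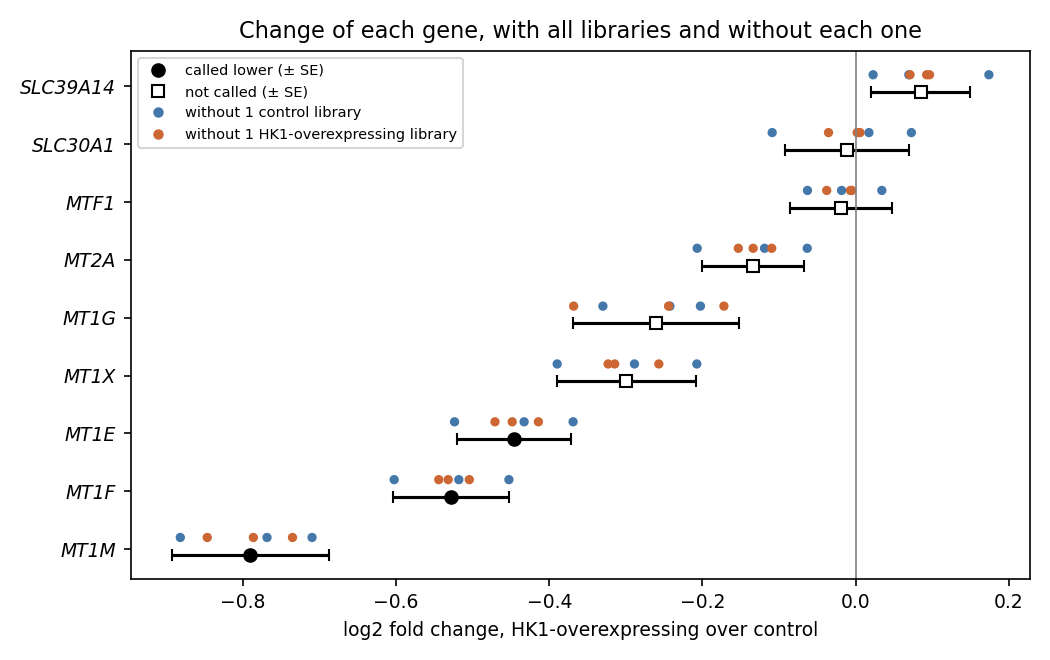
Log2 fold change of the 9 genes, HK1-overexpressing over control, with all libraries (black, bar of 1 standard error; filled where the gene was called lower) and without each library in turn (blue where a control library, orange where an HK1-overexpressing library was left out). MT1M, MT1F and MT1E stay between -0.88 and -0.37 throughout, while MTF1 and SLC30A1 lie on both sides of 0.

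Other metallothionein rows were few and low. Of the 6 protein-coding metallothionein genes outside the 9, MT1A alone was tested, at 5.37 ± 0.787 CPM in controls and 4.82 ± 0.526 CPM in HK1-overexpressing cells (log2 fold change -0.16, edgeR adjusted p = 0.575). MT1B had 4 to 9 counts a library. MT1H, MT1HL1, MT3 and MT4 were at 0 in all 6 libraries. A count of 0 limits the level to 3 counts, or 0.144 to 0.179 CPM depending on the library, for counting error alone, and sequence shared between copies may also leave fragments uncounted. Of 9 pseudogenes and non-coding copies only MT1P1 was tested, at 1.37 ± 0.355 CPM in controls and 1.34 ± 0.191 CPM with HK1 (log2 fold change -0.04, edgeR adjusted p = 0.947). Over the 7 tested genes of the protein-coding list, 3 fell and 0 rose, against 4.15% lower and 3.87% higher of all tested genes. All 7 had a negative log2 fold change, with a median of -0.30 against 0.0063 over all tested genes. The share of negative changes over all tested genes was not computed. MT1A apart, the 7 are the metallothioneins counted above, which are close copies, so they are not 7 separate observations.

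Measured against MT2A within the same library, which removes the library scaling, the control libraries were close to identical. The log2 ratio of MT1M to MT2A counts was -3.06, -3.01 and -3.01 in controls against -3.58, -3.64 and -3.84 in HK1-overexpressing cells, a difference of -0.66. That of MT1F to MT2A was -1.44, -1.43 and -1.45 in controls against -1.81, -1.84 and -1.87 in HK1-overexpressing cells, a difference of -0.40. For MT1E it was -0.86, -0.84 and -0.85 in controls against -1.11, -1.11 and -1.26 in HK1-overexpressing cells, a difference of -0.31. These 3 ratios had no overlap between groups, and neither did that of MT1X, with a difference of -0.17, while that of MT1G overlapped, with a difference of -0.14. How many of all tested genes have a ratio to MT2A without overlap was not computed. In CPM, 27.8% of them had none in either direction. The exact two-sided permutation test gave p = 0.1 for MT1E, MT1F, MT1M and MT1X, the smallest that 3 libraries against 3 allow, and p = 0.4 for MT1G (0.125 and 0.4 after Benjamini-Hochberg adjustment over 5 ratios). No ratio could thus pass 0.05 in this test. All 5 ratios share the MT2A counts, and their differences restate the fold changes given above relative to that of MT2A. They are not 5 separate observations. Leaving out each library in turn, the differences ran from -0.71 to -0.58 for MT1M, -0.41 to -0.38 for MT1F, -0.34 to -0.26 for MT1E, -0.21 to -0.10 for MT1X and -0.24 to -0.03 for MT1G. The SD of the ratios over the 3 controls was 0.0088 to 0.036, so control replicate 1, low for every metallothionein in CPM, lay close to the other controls here. Counting error alone would spread the ratios by more than these SDs, as with the 299 to 331 control counts of MT1M. The control SDs therefore understate the error of the ratios.

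**Figure D3:**
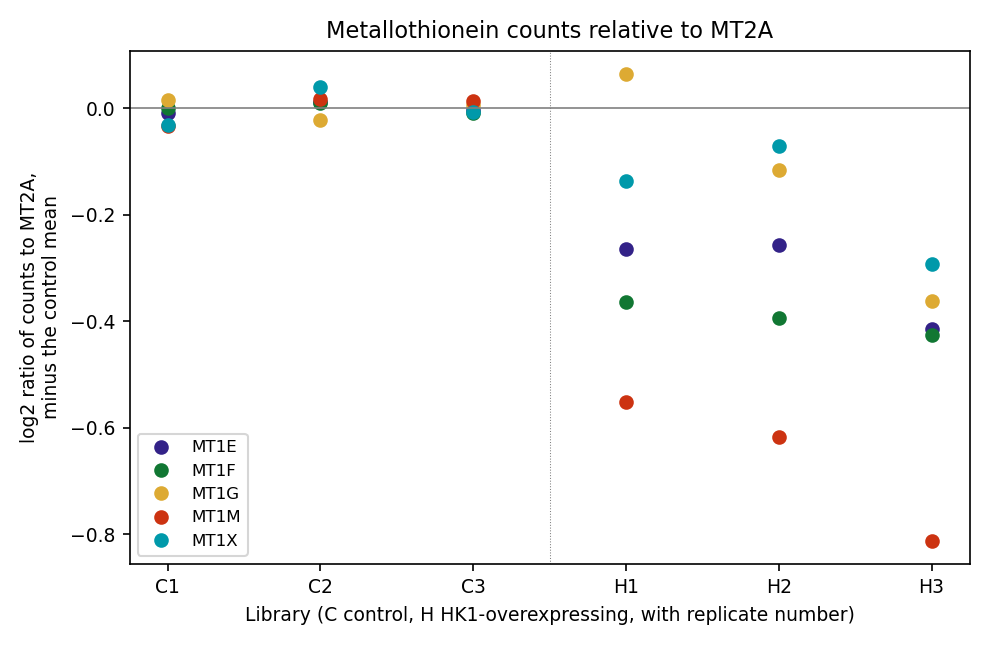
Log2 ratio of each metallothionein 1 gene's counts to MT2A counts in each library, minus the mean of the 3 controls; C1 to C3 are control and H1 to H3 HK1-overexpressing replicates. Controls lie near 0 for all 5 genes, with SDs of 0.0088 to 0.036, less than counting error alone would give. The HK1-overexpressing libraries are lower for MT1E, MT1F, MT1M and MT1X.

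The make-up of the family shifted accordingly. MT2A took 43.1%, 42.7% and 43.0% of the counts of the 6 genes in controls against 47.6%, 47.8% and 50.3% in HK1-overexpressing cells. MT1E took 23.8% ± 0.0629 and 21.7% ± 0.674, MT1F 15.8% ± 0.0747 and 13.6% ± 0.198, and MT1M 5.27% ± 0.0875 and 3.78% ± 0.237 (SD, n = 3 each). MT1X took 7.84% ± 0.160 and 7.91% ± 0.406, and MT1G 4.29% ± 0.0776 and 4.43% ± 0.529. Shares add to a whole, so a lower share of one gene raises those of the others. The SDs of the control shares are also below what counting error alone would give, so they understate the error.

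Summed over the 6 genes, metallothionein transcripts stood at 296.4, 365.1 and 340.3 CPM in controls and at 276.7, 263.7 and 266.3 CPM in HK1-overexpressing cells. Every HK1-overexpressing sum was below every control sum. The means were 333.9 ± 34.8 and 268.9 ± 6.91 CPM (SD, n = 3 each), a log2 ratio of -0.31, which is larger than the SD of 0.111 between replicates on the log2 scale. With all listed metallothionein rows added in, the means were 341.4 and 275.6 CPM and the log2 ratio was also -0.31. Those rows add so little that the ratio could hardly differ. Fragments left uncounted are not brought back, so shared sequence was not tested by this. Counts scaled to library totals alone gave -0.27.

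Between genes, levels were compared per length of counted exon. MT2A led, at 156.8 ± 15.7 CPM per kilobase in controls and 142.9 ± 4.43 in HK1-overexpressing cells, followed by MT1E at 75.7 ± 8.07 and 55.5 ± 2.41. In controls the next levels per kilobase were SLC39A14 at 40.3 ± 4.20, MT1M at 34.5 ± 4.09, SLC30A1 at 28.9 ± 3.77 and MT1F at 28.5 ± 2.91, each within 2 SD of the next. MT1G followed at 19.1 ± 1.68, MT1X at 15.2 ± 1.87 and MTF1, the lowest of the 9, at 4.90 ± 0.311. The length divided by is 1852 bases for MT1F and 1727 for MT1X, against 690 and 450 in the mRNA of GENCODE release 29, which lowers their levels on this scale. The counted exons hold every intron base of that mRNA in MT1F (920 bases), MT1X (1323 bases) and MT2A (513 bases), but 37.3% or less in MT1E, MT1G and MT1M. Per kilobase of that mRNA, MT1F was at 76.5 ± 7.82 and MT1X at 58.3 ± 7.19 in controls, above MT1G at 35.3 ± 3.11. MT1M, with an mRNA of 829 bases against 511 counted, was at 21.3 ± 2.52, and MT2A and MT1E still led at 182.4 ± 18.3 and 113.1 ± 12.1.

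MTF1 itself, the transcription factor, showed no called change in its mRNA. It lies on chromosome 1 from 37809574 to 37859592 on the minus strand and stood at 41.6, 39.1 and 36.7 CPM in controls and at 38.3, 39.7 and 37.9 CPM in HK1-overexpressing cells. The HK1-overexpressing values lay within the control range (log2 fold change -0.02, standard error 0.0665, edgeR adjusted p = 0.906). Its direction turned with library totals only (log2 fold change 0.0196) and without control replicate 1 (log2 fold change 0.0342).

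Upstream sequences are shown for the members with a match to the metal response element core, the short sequence that MTF1 is known to bind. RefSeq (GRCh38.p14) promoters were matched for 4 of the 9 genes, MT1X, MT2A, MTF1 and SLC30A1, and the 250 bases before the start were searched on both strands for TGCACNC and TGCGCNC. Capitals mark the matches, which do not overlap here, and the sequences run 5′ to 3′ on the strand the table gives. All 3 windows end at the base before the gene's start in the count table's annotation. Bases after the start were found in a GENCODE release 29 transcript of MT2A and MT1X, but no such transcript of SLC30A1 reaches that far, so the orientation of its letters was not checked.
MT2A, chr16:56608334-56608583, plus strand: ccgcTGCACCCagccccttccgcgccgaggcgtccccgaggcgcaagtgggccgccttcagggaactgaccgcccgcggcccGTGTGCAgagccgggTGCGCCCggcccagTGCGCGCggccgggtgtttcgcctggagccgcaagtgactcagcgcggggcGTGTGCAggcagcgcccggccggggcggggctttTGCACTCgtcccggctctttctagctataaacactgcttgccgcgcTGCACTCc
MT1X, chr16:56682220-56682469, plus strand: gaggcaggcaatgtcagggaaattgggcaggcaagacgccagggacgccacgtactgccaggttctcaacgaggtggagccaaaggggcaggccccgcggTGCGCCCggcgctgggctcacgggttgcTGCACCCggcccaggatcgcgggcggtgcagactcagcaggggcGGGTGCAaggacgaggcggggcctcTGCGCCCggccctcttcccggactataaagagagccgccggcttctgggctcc
SLC30A1, chr1:211579162-211579411, minus strand: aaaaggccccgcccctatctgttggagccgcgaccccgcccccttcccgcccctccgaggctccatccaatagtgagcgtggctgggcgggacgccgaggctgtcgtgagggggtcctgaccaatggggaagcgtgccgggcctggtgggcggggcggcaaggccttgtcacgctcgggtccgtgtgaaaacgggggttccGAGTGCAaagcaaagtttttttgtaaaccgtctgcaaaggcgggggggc
MT2A had 7 matches, 5 on the plus strand, MT1X had 4 and SLC30A1 had 1, which begins 49 bases before its start. The MTF1 window had 0. Of 35116 promoters of the same length 24.8% had at least 1 match, 0.37% had at least 4 and 0.0313% had at least 7. MT2A, MT1X and SLC30A1, with 7, 4 and 1 matches, had log2 fold changes of -0.13, -0.30 and -0.01, and none was called. MT1E, MT1F and MT1M, the genes called lower, had no matched promoter and were not searched, nor were MT1G and SLC39A14. Whether matches go with a change in level was therefore not tested. A match is a description of the letters and not of binding.

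SLC30A1 and SLC39A14, the zinc exporter and importer, were also not called. SLC30A1, on chromosome 1 from 211571568 to 211579161 on the minus strand, stood at 188.2, 145.4 and 177.1 CPM in controls and at 166.5, 174.6 and 165.9 CPM in HK1-overexpressing cells. The HK1-overexpressing values lay inside the control range, which was wide because control replicate 2 was low (log2 fold change -0.01, standard error 0.0808, edgeR adjusted p = 0.955), and its direction turned in 7 of the 16 alternatives. SLC39A14, on chromosome 8 from 22367278 to 22434129 on the plus strand, stood at 309.8, 252.6 and 272.6 CPM in controls and at 293.0, 300.8 and 292.0 CPM in HK1-overexpressing cells. The groups overlapped through control replicate 1, the highest of the 6 libraries (log2 fold change 0.08, standard error 0.0644, edgeR adjusted p = 0.493). Without that library SLC39A14 was called higher (log2 fold change 0.17, adjusted p = 0.0182), and its adjusted p ran from 0.0182 to 0.845 over 16 alternatives. In control replicate 1 both transporters were at their highest and all 6 metallothioneins at their lowest among controls.

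Among the other zinc transporters 1 fell and 0 rose, against 4.15% lower and 3.87% higher of all tested genes. Of 7 other tested SLC30 genes, which move zinc out of the cytosol, SLC30A10, known also for manganese export, fell. It stood at 40.8, 30.3 and 38.2 CPM in controls and at 25.2, 25.5 and 28.7 CPM in HK1-overexpressing cells, without overlap (log2 fold change -0.46, standard error 0.102, edgeR adjusted p = 0.0150). That call was lost without control replicate 3 and without HK1-overexpressing replicate 1 or 2 (largest adjusted p = 0.0855). SLC30A5, the highest of these 7 per length, was at 46.9 ± 2.41 and 47.04 ± 1.66 CPM. SLC30A3 (log2 fold change 0.47) and SLC30A7 (log2 fold change 0.15) were higher at an unadjusted p below 0.05 in edgeR. Neither was called in any setting. Of all tested genes, 21.9% passed the unadjusted threshold in either direction. Of 10 other tested SLC39 genes, which move zinc into the cytosol, 0 rose and 0 fell in the main edgeR fit, DESeq2 or limma-voom. At an unadjusted p below 0.05 in edgeR there were 2, SLC39A5 (log2 fold change -0.74) and SLC39A10 (log2 fold change 0.33), a share near the 21.9% of all tested genes. SLC39A5 was called lower with the replicate block (edgeR adjusted p = 0.0278), with no filter (0.0183) and without control replicate 3 (0.0465), and SLC39A10 was called higher with no filter (0.000873). SLC39A9, the highest of these 10 per length, was at 82.3 ± 3.27 and 82.6 ± 2.73 CPM. The median log2 fold change was 0.06 over the 7 exporters and 0.03 over the 10 importers.

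Metallothioneins also hold copper, and 2 of 12 tested genes of copper handling fell while 0 rose, with a median log2 fold change of -0.01. Of all tested genes 4.15% fell and 3.87% rose. CP, ceruloplasmin, the copper-carrying ferroxidase of plasma, fell from 46.1 ± 3.71 to 29.4 ± 1.20 CPM (log2 fold change -0.65, edgeR adjusted p = 7.18e-05). Of the 8 hepatocyte markers listed, 5 fell too, and a link of the fall in CP to copper was not tested. ATP7B, the copper pump of hepatocytes, fell from 30.7 ± 3.81 to 24.1 ± 0.653 CPM (log2 fold change -0.35, edgeR adjusted p = 0.0214), a call that needed control replicate 3 and each HK1-overexpressing library (largest adjusted p without one of them 0.116). CCS, the copper chaperone for superoxide dismutase and the highest of these genes per length, was at 86.7 ± 11.2 and 86.4 ± 1.52 CPM.

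Metallothionein genes respond to oxidants and glucocorticoids as well as to metals, and genes of both responses were listed. For the counts below, 3.87% of all tested genes rose and 4.15% fell. Of 10 tested genes of the metal and oxidant stress response 2 rose and 0 fell, with a median log2 fold change of -0.02. HMOX1, heme oxygenase 1, which cadmium and other metals induce, rose from 87.3 ± 3.04 to 106.3 ± 3.44 CPM (log2 fold change 0.28, edgeR adjusted p = 0.00462). SLC7A11, the cystine importer, rose from 53.5 ± 9.77 to 74.7 ± 2.32 CPM (log2 fold change 0.48, edgeR adjusted p = 0.0411), a call that also needed those 4 libraries (largest adjusted p without one of them 0.125). NQO1, the highest of these genes per length, was at 1376 ± 67.9 and 1292 ± 32.2 CPM. Of 9 tested genes of the glucocorticoid response 1 rose and 1 fell, with a median of -0.12. SGK1, a kinase, rose from 90.9 ± 2.78 to 114.5 ± 0.935 CPM (log2 fold change 0.33, edgeR adjusted p = 0.000986), and TAT, tyrosine aminotransferase, fell from 6.04 ± 0.534 to 3.23 ± 0.258 CPM (log2 fold change -0.90, edgeR adjusted p = 0.000813). DUSP1, the highest of these genes per length, was at 139.7 ± 6.26 and 139.7 ± 1.90 CPM. FKBP5 was lower without overlap between groups but not called (log2 fold change -0.22, edgeR adjusted p = 0.0522). It was called lower in 2 of 16 alternatives. Of the 9 glucocorticoid response genes tested, 5 had no overlap, against 27.8% of all tested genes in either direction. Links of these changes to glucocorticoids were not tested.

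The metallothioneins shared 1 pattern among the control libraries. All 6 were lowest in control replicate 1 and highest in control replicate 2, and so was the median of the 1169 tested genes with up to 1000 bases of exon, the class of MT1G, MT1M and MT2A. On log2 CPM centred on each gene's mean over 6 libraries, that median was -0.07, 0.07 and 0.04 in control replicates 1, 2 and 3 and ran from -0.0044 to 0.02 in the HK1-overexpressing ones. Among the 1611 genes of the next class, up to 2 kilobases, which holds MT1E, MT1F and MT1X, the medians were -0.05, 0.05 and 0.04 in the 3 controls. Among genes with over 5000 bases of exon the medians were 0.03, -0.04 and 0.0031 in the 3 controls. Of the 1169 shortest genes 1.37% were called lower and 2.74% called in all, with a median log2 fold change of 0.01, and of the 1611 next longer genes 3.48% and 6.15%, with a median of -0.01. With the length trend of each library removed, MT1E, MT1F and MT1M were still called.

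**Figure D4:**
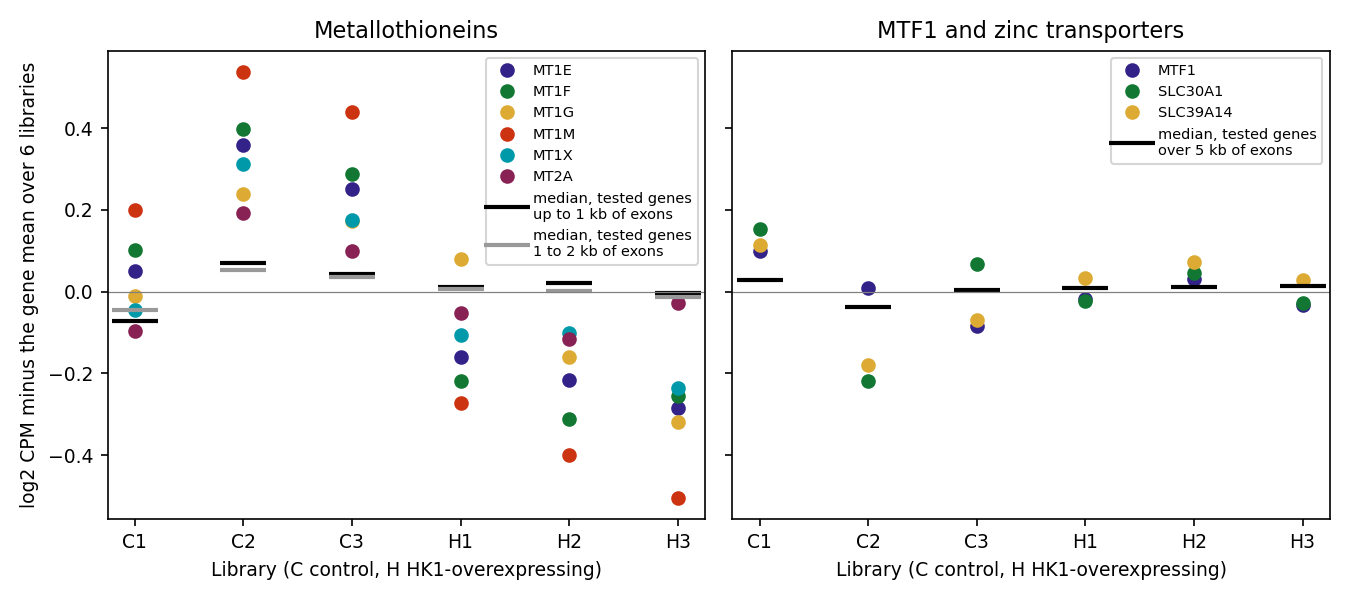
Log2 CPM of each gene minus its mean over the 6 libraries, for the 6 metallothioneins (left) and MTF1, SLC30A1 and SLC39A14 (right); bars are medians over all tested genes by exon length, up to 1 kilobase (left, black; the class of MT1G, MT1M and MT2A), 1 to 2 kilobases (left, grey; that of MT1E, MT1F and MT1X) and over 5 kilobases (right, black). MT1M lies at 0.20, 0.54 and 0.44 in the control libraries, and at -0.27, -0.40 and -0.50 in the HK1-overexpressing ones, farther from 0 than either median.

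The 5 genes whose centred log2 CPM was nearest to that of MT2A over the 6 libraries, among 9437 genes of mean CPM at least 10, were SAMM50, NAA10, RPL18AP3, RPL18 and PQBP1, at root mean square differences of 0.0182 to 0.0234. None of these 5 was called, with log2 fold changes of -0.17 to -0.12. They were picked for nearness over the same 6 libraries, so fold changes near the -0.13 of MT2A follow from the choice. RPL18AP3 is named as a copy of a ribosomal protein gene and its counts are uncertain. The other metallothioneins were farther from MT2A than many genes outside the family, at 0.107 for MT1X, 0.141 for MT1G, 0.164 for MT1E, 0.198 for MT1F and 0.336 for MT1M. These distances include the group differences given above and, in MT1G and MT1M, the error of low counts. They do not measure shared regulation.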

How the data were processed

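The authors deposited raw counts: featureCounts 1.5.3 assigned paired fragments to exons, summed by gene name in GENCODE release 47, per the file headers. The recorded command sets no strand, multi-mapping or multi-overlap option. Trim Galore, Subread and the build hg38 are named, per the submitters' processing notes; aligner settings are not given in the sources used here. Each of the 6 count columns was checked for whole numbers, and 0 sample columns were left unused.

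Counts were scaled by TMM, kept by filterByExpr (16734 genes) and tested with edgeR 4.0.16 in R 4.3.3 (robust quasi-likelihood, group only, Benjamini-Hochberg at 0.05 over all tested genes). Standard errors are the unshrunken coefficient over the square root of F. Alternatives, 16 in all, were other size factors, library totals, HK1 removed, 2 filters, DESeq2 1.42.0, limma-voom (limma 3.58.1), no robust dispersion, a replicate block, leaving out each library and, chosen after seeing the data, removal of a gene length trend by lowess.

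The fit was tested on simulated data. Of 50 genes changed at each size, 52% were recovered at 1.25-fold, 94% at 1.5-fold and 100% at 2-fold and 4-fold. There were 17 false calls with 16268 genes tested. A gene not called may thus still differ by a small fold change. Replicates of a group differed by more than sampling noise (chi-square per degree of freedom 1.58 to 11.3). The 9 genes and the lists were chosen with earlier results of these data known. Named genes were the 9 members, HK1, up to 4 called genes and the highest per length of each list, and the 5 nearest MT2A. SLC30A3, SLC30A7, SLC39A5, SLC39A10, FKBP5, the untested metallothioneins and the cell markers named are outside that rule.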

Additional observations from a re-analysis of the deposited data

How the results depend on the processing

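The 3 calls among the 9 genes were 3 to 6 when each library was left out: without control replicate 1 MT1X, MT2A and SLC39A14 were added, and no other library changed the count by over 1.5 times. Of all tested genes 1342 were called, and 536 to 2257 with 1 library left out (2257 when control replicate 1 was left out, 809 for control replicate 3, and 554, 536 and 598 for the HK1-overexpressing replicates 1, 2 and 3). With library totals only, 66.0% of calls were higher in place of 48.3%, and the median of all genes was 0.04 in place of 0.0063. The log2 fold change of MTF1 turned positive with library totals only (0.0196) and ran from -0.0629 to 0.0342 with 1 library left out. That of SLC30A1 turned positive with library totals only (0.0271), when no filter was set (0.0017) and when a mean of 5 CPM was required (0.0034), and ran from -0.109 to 0.0727 with 1 library left out, positive for control replicates 1 and 3 and HK1-overexpressing replicates 1 and 3; no fit called either gene. The log2 ratio of the metallothionein sum moved by less than 1 SD under its 9 alternatives.

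Replicate numbers did not pair the samples: same-numbered libraries correlated at 0.0071, 0.06 and -0.03 across genes in their deviations from the group means. With the replicate block 1074 genes were called, and among the 9 genes MT1E, MT1F and MT1M were called as without it. The 2 lowest of the 6 metallothioneins, MT1G and MT1M, had 220 to 273 and 198 to 331 counts a library, which limits the precision of single copies.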
